A study of Mus musculus with 14 samples.

Results

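The reproductive homeobox (Rhox) genes lie in a cluster on the X chromosome, and 6 of them, Rhox1, Rhox5, Rhox6, Rhox9, Rhox10 and Rhox13, were followed here by name among 54446 gene IDs in 14 RNA-seq libraries. The 6 were taken because Rhox5 had the largest fall of the series in wild-type cells at 144 h and because the family is known to respond to DNA methylation, so they were selected on the WT values at 0 h and 144 h, which are given below for these genes as a description with no test. The cells were E14 mouse embryonic stem (ES) cells, grown without feeder cells in serum and LIF. Wild-type (WT) cells were collected untreated (0 h) and after 24, 72 and 144 h in INK128, an mTOR inhibitor used to induce a dormant, paused state of pluripotency. Cells labelled Tet1/2 DKO, a double knockout of 2 TET dioxygenases that oxidise methylated cytosine, were collected at 0, 24 and 72 h, with none analysed here at 144 h. The DKO cells descended from single sorted cells after Cas9 deletion, so a difference between the lines cannot be told apart from a difference between clones. Each of the 7 groups had 2 libraries (n = 2 throughout), made from rRNA-depleted total RNA with ERCC spike-in RNA added.

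Levels are spike-in normalized transcript abundances (TPM, a length-corrected share of all transcripts): the deposited TPM, which sum to the same total in every library, multiplied by a single factor per library that carries the study's ERCC scaling. Values without that factor are given as deposited TPM. Fitted differences are on the log2(TPM + 1) scale, which understates changes of low genes, and were tested with limma over the 18232 genes whose mean reached 1 TPM. A gene was called at a Benjamini-Hochberg adjusted p under 0.05, with p-values adjusted over all those genes. TPM keeps no read depth, so the depth behind each value is unknown, and in bulk RNA fewer cells expressing a gene and less RNA per cell cannot be told apart.

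The Rhox genes encode homeodomain transcription factors used mainly in the gonads, the germ line and the placenta. Rhox5, also called Pem, is the founding member and is expressed in ES cells, trophoblast and Sertoli cells, the nurse cells of the testis. Promoters of the cluster are silenced by DNA methylation in somatic lineages, and several of its genes rise in cells that lack DNA methyltransferases.

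All 6 genes are protein coding in GENCODE vM21 on mm10 (GRCm38), and none overlaps another annotated gene. Rhox1 (ENSMUSG00000071773.4, chrX:37213804-37222258, minus strand) lies at the proximal edge of the cluster. Rhox5 (ENSMUSG00000095180.8, chrX:37804842-37808876, plus strand) and Rhox6 (ENSMUSG00000006200.3, chrX:37826910-37829857, plus strand) are the nearest neighbours of the set. Rhox9 (ENSMUSG00000068048.8, chrX:37899097-37901770, minus strand), Rhox10 (ENSMUSG00000053909.8, chrX:38066475-38071691, plus strand) and Rhox13 (ENSMUSG00000050197.5, chrX:38121219-38129967, plus strand) follow distally.

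The homeobox sequences below show how far the 6 genes have diverged, which decides whether reads can be assigned to them. Each is a stretch of 60 coding bases from the GENCODE transcripts, 5′ to 3′ on the coding strand, and the capitals mark the paired tryptophan and phenylalanine codons of the DNA recognition helix, which all 6 share.
Rhox1: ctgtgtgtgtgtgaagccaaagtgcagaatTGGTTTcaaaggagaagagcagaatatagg
Rhox5: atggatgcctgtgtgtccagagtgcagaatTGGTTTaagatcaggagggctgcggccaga
Rhox6: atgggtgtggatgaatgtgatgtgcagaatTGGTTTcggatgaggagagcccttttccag
Rhox9: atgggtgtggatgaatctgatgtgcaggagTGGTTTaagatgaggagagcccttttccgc
Rhox10: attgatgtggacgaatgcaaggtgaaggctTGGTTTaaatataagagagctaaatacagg
Rhox13: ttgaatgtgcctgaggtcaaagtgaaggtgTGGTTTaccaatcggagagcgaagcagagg
Rhox6 and Rhox9, known as placental paralogs, were identical at 53 of these 60 bases (88.3%), whereas every other pair shared between 30 and 39 bases. Over whole transcripts, 16.5% of the 50-base windows of Rhox6 also occurred in Rhox9, and 4.72% of those of Rhox9 occurred in Rhox6. No window of Rhox1, Rhox5, Rhox10 or Rhox13 was found in another gene. The division of reads between Rhox6 and Rhox9 is therefore uncertain, and their sum is given beside their single values.

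The promoters of Rhox5 and Rhox10 are shown because these genes gave the largest called differences of the family, Rhox5 in time and Rhox10 between the genotype labels. Each is the 250 bases before the RefSeq start site on GRCm38.p6, read on the coding strand, with each CG dinucleotide, the site of DNA methylation, in capitals (motif CG, the same on both strands). The Rhox5 stretch is chrX:37754358-37754607 and the Rhox10 stretch is chrX:38066225-38066474, both on the plus strand.
Rhox5: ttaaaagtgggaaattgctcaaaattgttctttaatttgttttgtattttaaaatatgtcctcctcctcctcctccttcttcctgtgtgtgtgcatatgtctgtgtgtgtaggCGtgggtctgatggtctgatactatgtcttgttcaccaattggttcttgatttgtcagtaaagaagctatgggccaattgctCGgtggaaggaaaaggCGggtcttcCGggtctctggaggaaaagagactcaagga
Rhox10: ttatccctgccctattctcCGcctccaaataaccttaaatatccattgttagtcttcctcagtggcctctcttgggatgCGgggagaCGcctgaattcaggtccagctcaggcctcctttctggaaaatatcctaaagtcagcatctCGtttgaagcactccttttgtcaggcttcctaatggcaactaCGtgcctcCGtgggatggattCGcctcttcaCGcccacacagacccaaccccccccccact
The Rhox5 stretch held 4 CG and the Rhox10 stretch 8, where the median of 32851 promoters of the same length was 6, and 62.2% and 43.0% of them held at least as many. The Rhox13 promoter also held 4 CG, and the Rhox1 promoter held none. The RefSeq start of Rhox5 lies 50.2 kb upstream of the gene model used for the TPM, whereas the start of Rhox10 is the same in both. No methylation was measured in the libraries described here.

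In the libraries labelled DKO, Tet2 was lower than in WT at each shared time, with group means of 53.3, 31.3 and 43.6 TPM against 206, 184 and 179 TPM at 0, 24 and 72 h. Tet1 was not: its DKO means were 388, 337 and 516 TPM against 410, 432 and 473 TPM in WT. Tet1 RNA thus showed no loss like that of Tet2, but a whole-gene TPM does not show which exons were read. The study cut Tet1 with guides in its exons and reports checking the knockout of both genes by western blot. These RNA values therefore do not decide the genotype, and DKO below means libraries labelled DKO. All 8 ES cell markers examined were expressed in every group, but not at a fixed level: Nanog had group means of 703 TPM at WT 0 h and 226 TPM at WT 144 h, and 711 and 344 TPM at DKO 0 h and 72 h. By limma 4 of the 8 (Nanog, Tfcp2l1, Pou5f1 and Zfp42) were lower at WT 144 h against 0 h, where 50.5% of all genes were. The median of the 8 was -0.71 there against -0.83 for all genes, and 3 of the 8 lay below the median of all genes. Klf4 was instead higher, with group means of 146 TPM at WT 0 h and 188 TPM at WT 144 h, and 303 and 429 TPM at DKO 0 h and 72 h. The median fitted difference over all genes was -0.33 for both WT 24 h and WT 72 h against 0 h, -0.83 for WT 144 h against 0 h, -0.49 for DKO 24 h against 0 h, -0.12 for DKO 72 h against 0 h, 0.37 for DKO 72 h against 24 h, and 0.29, 0.10 and 0.49 for DKO against WT at 0, 24 and 72 h. It was -0.01 for WT 72 h against 24 h, and member values are to be read against these shifts.

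**Figure D1:**
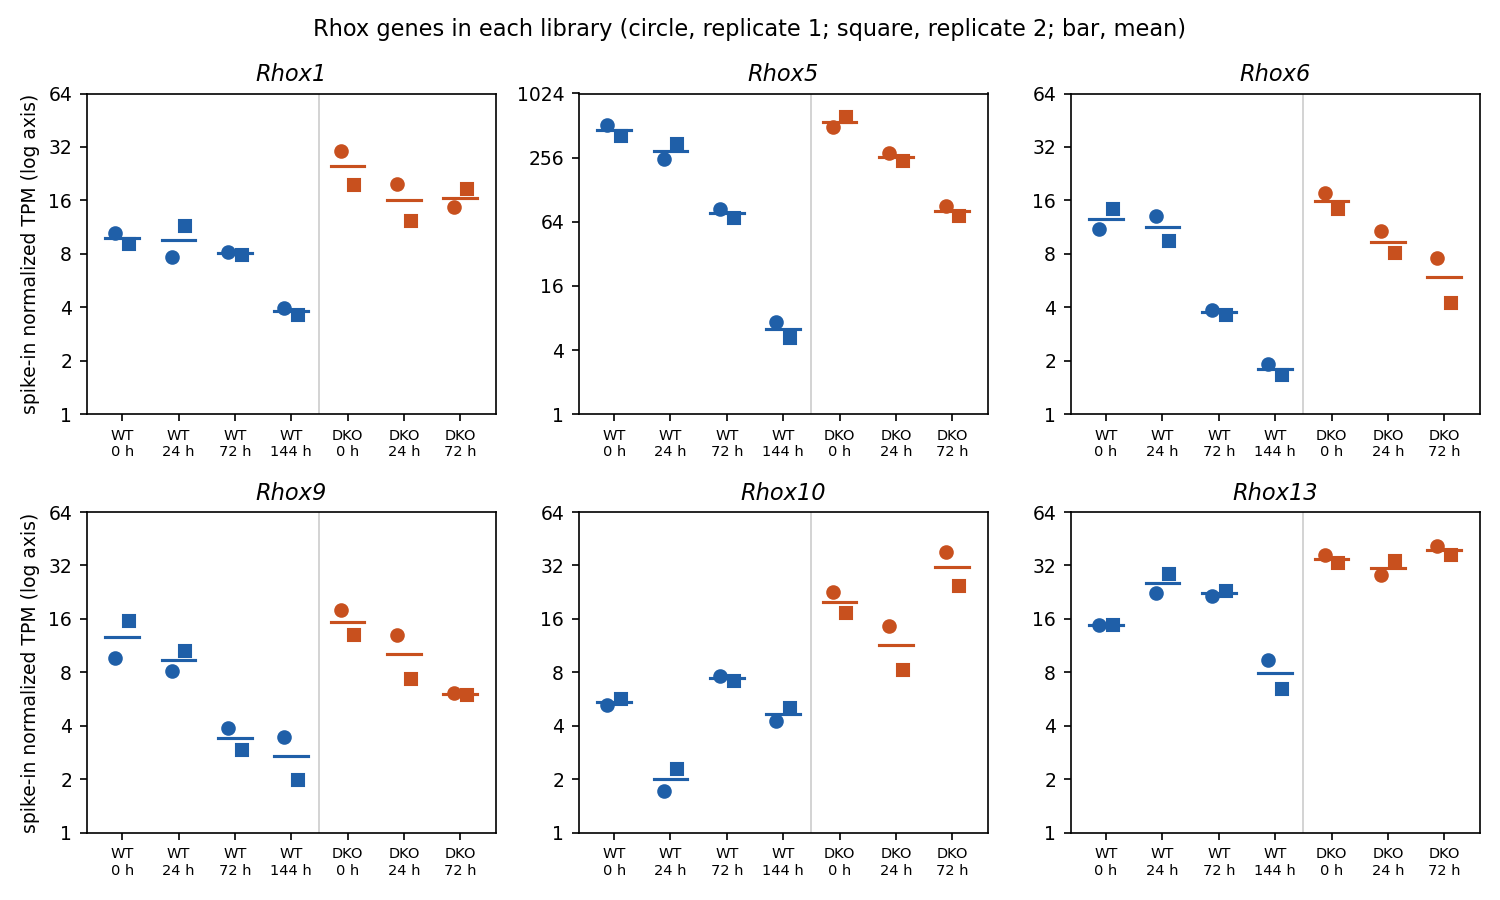
Level of each Rhox gene (spike-in normalized TPM, log axis) in every library by genotype label and time in INK128. Circles are replicate 1, squares replicate 2 and bars group means of 2 libraries. Rhox5 has its own axis and stood at 7.30 and 5.20 TPM at WT 144 h, and Rhox10 lies higher in the DKO libraries at each shared time.

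Rhox5 dominated the family in untreated cells and was close to the level of the other members by 144 h. In WT cells Rhox5 stood at 524 and 408 TPM untreated. It stood at 249.55 and 341 TPM after 24 h, at 83.9 and 69.6 TPM after 72 h, and at 7.30 and 5.20 TPM after 144 h. Each later time point lay below the one before it, with no overlap between the libraries. The group means were 466 ± 81.5, 295 ± 64.4, 76.8 ± 10.1 and 6.25 ± 1.48 TPM (SD, n = 2). Relative to 0 h the mean level was 63.3, 16.5 and 1.34% after 24, 72 and 144 h, the last 74.6-fold lower, and in deposited TPM it was 36.8-fold lower.

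Rhox5 was picked for the size of this difference, so that the other members differed less is no finding. In spike-in normalized TPM all 6 members were lower in both WT 144 h libraries than in both 0 h libraries, as were 82.1% of all genes, so the count says nothing particular about the family. Rhox6 and Rhox9 kept 14.2% and 21.6% of their 0 h level at 144 h. Rhox1, which is expressed in Sertoli cells, kept 38.7%. Rhox13, a germ-cell member, kept 53.7%, and Rhox10, which acts in setting up spermatogonial stem cells, kept 85.0%. In deposited TPM Rhox10 instead stood at 174% of its 0 h level, with both 144 h libraries higher, and Rhox13 at 109% with overlapping libraries. The other 4 members remained lower there too, where 30.0% of all genes were lower without overlap and 37.3% higher.

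The order of the members changed accordingly. In WT cells at 0 h Rhox5 was followed by Rhox13 at 14.8 TPM, by Rhox6 and Rhox9, both at 12.6 TPM with overlapping libraries, then by Rhox1 at 9.83 TPM and Rhox10 at 5.46 TPM. The libraries of Rhox9 also overlapped those of Rhox13 and Rhox1, and Rhox10 lay below every other member. At 144 h Rhox13 came first at 7.94 TPM, before Rhox5 at 6.25 TPM, and the libraries of these 2 genes overlapped. They were followed by Rhox10 at 4.64 TPM, Rhox1 at 3.81 TPM, Rhox9 at 2.72 TPM and Rhox6 at 1.79 TPM, none of which overlapped its neighbour in this order. Rhox5 made up 83.2 to 86.4% of the summed TPM of all 42 Rhox genes in untreated WT libraries, 54.2 to 57.7% after 72 h and 17.9 to 19.5% after 144 h. In DKO libraries its share was 74.5 to 81.3% at 0 h and 37.6 to 41.0% at 72 h. TPM are levels per transcript length, but they depend on the gene model used, and the order of Rhox6 and Rhox9 rests on the uncertain division of their reads.

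Library values of the lower members show where the times separated. In WT cells Rhox6 stood at 11.0 and 14.3 TPM at 0 h and at 1.91 and 1.67 TPM at 144 h, and Rhox9 at 9.65 and 15.6 TPM and at 3.45 and 1.99 TPM. For Rhox9 the 72 h libraries, at 3.91 and 2.91 TPM, overlapped those at 144 h. Rhox1 stood at 10.6 and 9.10 TPM at 0 h and 8.22 and 7.93 TPM at 72 h, before 3.98 and 3.64 TPM at 144 h. Its mean at 72 h was 82.2% of 0 h, and 110.6% in deposited TPM, where the libraries overlapped. Rhox13 had its highest WT values in the middle of the course, with 14.8 and 14.7 TPM at 0 h, 22.4 and 28.5 TPM at 24 h, 21.4 and 23.1 TPM at 72 h and 9.40 and 6.47 TPM at 144 h. Its fitted difference was 0.73 at 24 h against 0 h, where the median of all genes was -0.33, and -0.84 at 144 h against 0 h, the second close to the median of all genes. Rhox10 differed by -1.11, 0.38 and -0.20 from 0 h at the 3 later times, where the medians of all genes were -0.33, -0.33 and -0.83.

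**Figure D2:**
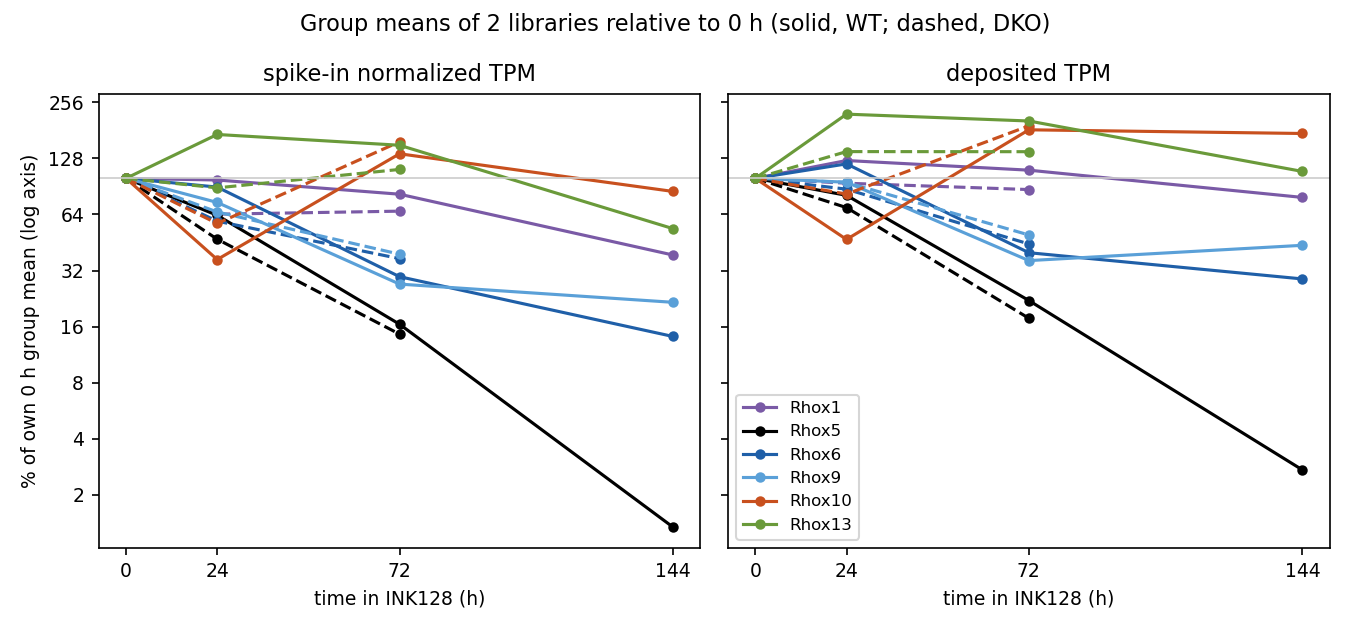
Group mean of each Rhox gene as a percentage of its own 0 h mean (log axis) against hours in INK128, in spike-in normalized TPM on the left and deposited TPM on the right, with solid lines for WT and dashed lines for DKO (2 libraries a point). Rhox5 stood at 1.34% and 2.72% on these scales in WT at 144 h, whereas Rhox10 was lowest at 24 h and ended at 85.0% and 174%.

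Between 24 h and 72 h in WT cells, a difference between libraries that did not choose the genes, Rhox5 fell and Rhox10 rose. The fitted difference of Rhox5 was -1.92 (SE 0.276, limma adjusted p = 0.00121). Rhox10 stood at 1.72 and 2.29 TPM at 24 h and at 7.64 and 7.15 TPM at 72 h, so both libraries were higher at 72 h, and its fitted difference was 1.49 (SE 0.351, limma adjusted p = 0.0466). The SE is shared over all 7 groups, so the WT 0 h and 144 h libraries enter it. With only the 4 libraries of this step fitted, the limma adjusted p was 1.13e-07 for Rhox5 and 0.000361 for Rhox10. These 2 of 6 members, which moved in opposite directions, were called where 0.987% of all genes were called. Rhox5 was chosen for its fall over the WT course that holds this step, so the count does not speak for the family. The Rhox5 call held without any library of either group, whereas the Rhox10 call was lost without each of the 4, with limma adjusted p between 0.153 and 0.552, with no filter (0.142) and with a replicate block across all libraries (0.0619).

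Rhox6 and Rhox9 were lower at 72 h than at 24 h in both WT libraries, at 3.86 and 3.63 TPM against 13.2 and 9.51 TPM for Rhox6 and at 3.91 and 2.91 TPM against 8.14 and 10.6 TPM for Rhox9. Their fitted differences were -1.36 (SE 0.348, limma adjusted p = 0.0638) and -1.23 (SE 0.371, limma adjusted p = 0.13), and neither was called. With the replicate number as a block within each genotype both passed, with limma adjusted p of 0.002 and 0.0119, and in deposited TPM they passed too (0.00763 and 0.0148). The 4 members then called stood beside 6.60% of all genes with the block and 12.6% in deposited TPM. The sum of Rhox6 and Rhox9, used here and below, was chosen after the data were seen. It was 21.3 and 20.1 TPM at 24 h and 7.77 and 6.54 TPM at 72 h, a fitted difference of -1.42 (SE 0.336, limma adjusted p = 0.047, and 0.00116 with the block). The differences of Rhox1 and Rhox13 were -0.20 and -0.18 (limma adjusted p = 0.968 and 0.967).

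Markers of other cell types moved in the same step. Summed TPM of 10 primitive endoderm genes was 664 and 834 in the WT libraries at 24 h and 84.7 and 154 at 72 h, and 5 of the 10 (Foxa2, Gata4, Lama1, Sox17 and Sox7) were lower by limma, where 0.987% of all genes were called, with a list median of -2.57 against -0.01 for all genes. For comparison, the sum was 118 and 252 TPM at WT 0 h and 49.5 and 39.1 TPM at WT 144 h. Of 10 trophectoderm and placenta markers 7 passed the filter, and 2 were lower by limma: Krt8, with group means of 55.5 TPM at 24 h and 8.83 TPM at 72 h, and Krt18, with 61.2 and 12.7 TPM. These 2 keratins made up most of the mean summed level at 24 h. Of the 7, 4 lay below the median of all genes. Eomes and Ascl2 were not lower, with group means of 5.52 and 4.57 TPM at 24 h and 5.67 and 4.94 TPM at 72 h. The summed level of the 10 was 195 and 90.5 TPM at 24 h and 44.2 and 38.4 TPM at 72 h, and Elf5, which defines trophoblast, had group means of at most 0.155 TPM. The part of these cells in the Rhox differences was not tested. The Sertoli marker Wt1 followed Rhox10 with group means of 12.4, 1.75, 18.2 and 14.3 TPM at 0, 24, 72 and 144 h in WT, and Gata1, the other gene of that 5-gene list to pass the filter, did not, with means of 4.12, 1.55, 2.11 and 0.728 TPM. Sox9, Dhh and Amh, which define Sertoli cells, had group means of at most 1.01 TPM.

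In DKO cells Rhox5 declined over the same times. It stood at 496 and 614 TPM untreated, at 286 and 238 TPM after 24 h, and at 90.0 and 71.8 TPM after 72 h, with no overlap between times. The fitted difference was -1.08 at 24 h (SE 0.276, limma adjusted p = 0.0111) and -2.76 at 72 h (SE 0.276, limma adjusted p = 1.66e-05), both against the same 0 h libraries. The step from 24 h to 72 h was -1.68 (SE 0.276, limma adjusted p = 0.0022). The falls at 72 h against 0 h and against 24 h held without any library of the groups compared, but the second was lost with only these groups fitted (limma adjusted p = 0.199), whereas the fall at 24 h was lost without either 0 h library (limma adjusted p = 0.0543 and 0.103) or without replicate 2 at 24 h (0.06), and in deposited TPM.

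Rhox6 was the only other member called in these steps. It stood at 17.6 and 14.3 TPM at 0 h and at 7.56 and 4.26 TPM at 72 h, which do not overlap, and its fitted difference was -1.33 (SE 0.348, limma adjusted p = 0.0383). The call was lost without either 0 h library (limma adjusted p = 0.232 and 0.124) or without replicate 2 at 72 h (0.283). Rhox9 gave -1.21 (limma adjusted p = 0.0746, and 0.00747 with the block, where 18.5% of all genes were called), and the sum of both genes gave -1.32 (limma adjusted p = 0.0336). At 24 h against 0 h the sum gave -0.67 (limma adjusted p = 0.164, and 0.034 with the block). Thus 2 of 6 members were called at 72 h against 0 h, where 3.66% of all genes were called. At 24 h against 0 h 1 of 6 was called, where 19.2% of all genes were, and at 72 h against 24 h 1 of 6, where 1.42% were. The replicate block added Rhox10 and Rhox6 at 24 h against 0 h, with fitted differences of -0.79 and -0.71 (limma adjusted p = 0.0115 and 0.0293 with the block, 0.117 and 0.155 without). With that block 40.0% of all genes were called, so 3 of 6 members is near the share of all genes. In deposited TPM Rhox9 and Rhox10 were also called at 72 h against 0 h, at -0.82 and 0.85 (limma adjusted p = 0.023 and 0.00152), where 28.9% of all genes were.

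Rhox10 in DKO cells, as in WT cells, was lowest at 24 h: it stood at 22.7 and 17.3 TPM untreated, at 14.6 and 8.27 TPM after 24 h and at 38.1 and 24.7 TPM after 72 h. The libraries of the 3 times did not overlap. Its step from 24 h to 72 h was 1.40 (SE 0.351, limma adjusted p = 0.0502) and passed with the replicate block (0.000844, where 13.6% of all genes were called) and in deposited TPM (0.00464, where 6.98% were). Wt1 had group means of 14.8, 2.94 and 16.7 TPM and Gata1 of 5.49, 2.14 and 4.66 TPM. Rhox1 and Rhox13 were not called in any step of the DKO cells. Primitive endoderm markers moved here too: their sum was 289 and 107 TPM at 0 h, 378 and 149.99 TPM at 24 h, and 170.3 and 86.5 TPM at 72 h. None of the 10 was called in a DKO step, and for 72 h against 24 h their median was -0.76 against 0.37 for all genes, with all 10 below the median of all genes. For trophectoderm and placenta markers the median of this step was -0.33, with 5 of 7 below the median of all genes. For 7 primordial germ cell markers it was 0.39, with 3 below, and neither list held a call in this step. The part of these markers in the Rhox differences was not tested.

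**Figure D3:**
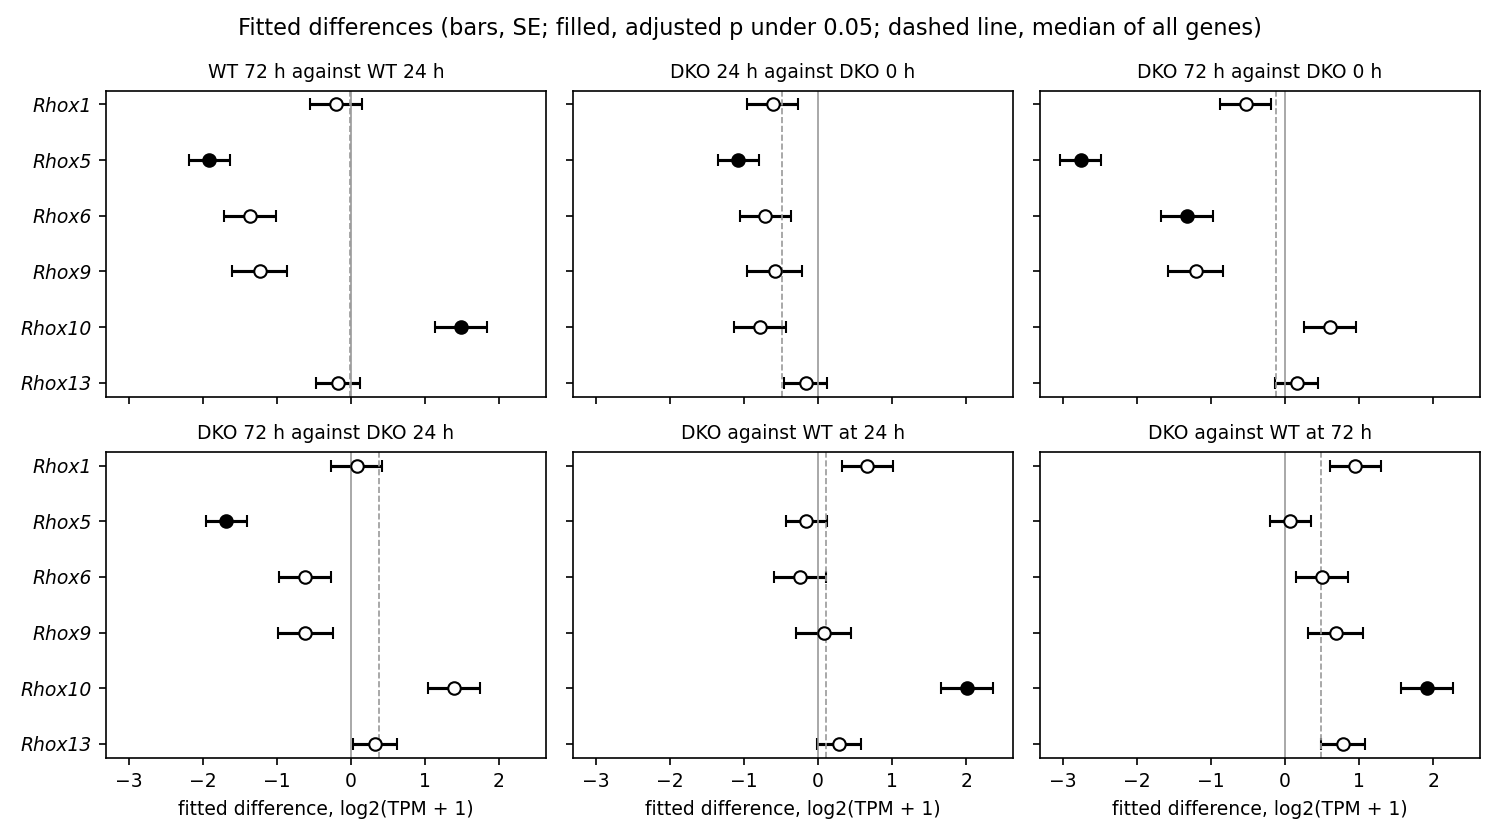
Fitted difference of each Rhox gene (log2(TPM + 1), horizontal axis) in 6 comparisons, with bars for the SE, filled points for a limma adjusted p under 0.05 and a dashed line at the median of all genes. Rhox5 was called in each of the 4 steps in time, and Rhox10 at WT 72 h against 24 h and for DKO against WT at both 24 h and 72 h.

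The comparison of DKO with WT cells at matched times asks which members depend on the genotype label. Rhox10 was higher in DKO cells at each time: both DKO libraries exceeded both WT libraries at 0 h (22.7 and 17.3 against 5.23 and 5.69 TPM), after 24 h (14.6 and 8.27 against 1.72 and 2.29 TPM) and after 72 h (38.1 and 24.7 against 7.64 and 7.15 TPM). The ratio of group means was 3.66, 5.71 and 4.24 in order of time, and 2.96, 5.19 and 3.11 in deposited TPM. The fitted difference was 2.01 at 24 h (SE 0.351, limma adjusted p = 0.0287) and 1.92 at 72 h (SE 0.351, limma adjusted p = 0.0266). At 0 h it was 1.69, given without a test because the WT 0 h libraries entered the choice of the genes.

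At each tested time 1 of 6 members was called, against 0.0439% of all genes at 24 h and 0.329% at 72 h. The call held in deposited TPM, with fitted differences of 1.72 (limma adjusted p = 0.000587) and 1.46 (0.0012). It was lost at 72 h without each of the 4 libraries, with limma adjusted p from 0.0515 to 0.676, and with no filter (0.0671). At 24 h it was lost without either WT library (limma adjusted p = 0.236 and 0.0597) or without DKO replicate 1 (0.0829), and also with a replicate block across all libraries (0.055), with only these groups fitted (0.227) and with no filter (0.136), while the fitted value stayed between 1.61 and 2.38 in the 8 fits that left out a library. The steps in time and these differences share libraries and are not independent. Primitive endoderm markers stood at a median of -1.43 against 0.10 for all genes at 24 h, with all 10 below the median of all genes and none called, and at 0.11 against 0.49 at 72 h. Their part was not tested.

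Rhox1 and Rhox13 were also higher in DKO libraries, without passing the test. Rhox1 stood at 14.7 and 18.5 TPM in DKO and at 8.22 and 7.93 TPM in WT at 72 h, a fitted difference of 0.95 (limma adjusted p = 0.171). Rhox13 stood at 41.2 and 36.6 TPM in DKO and at 21.4 and 23.1 TPM in WT, a fitted difference of 0.78 (limma adjusted p = 0.18). Neither gene's libraries overlapped at 72 h, where 62.6% of all genes were likewise higher without overlap and the median of all genes was 0.49. At 0 h the fitted differences were 1.23 and 1.18, where the median of all genes was 0.29. At 24 h they were 0.67 and 0.28 (limma adjusted p = 1 for both), where the median of all genes was 0.10.

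Rhox5, by contrast in value, lay close to WT at the shared times. Its fitted difference for DKO against WT was 0.26 untreated, -0.16 after 24 h (limma adjusted p = 1) and 0.07 after 72 h (SE 0.276, limma adjusted p = 0.852), the last turning to -0.33 in deposited TPM. Rhox6 gave -0.24 and 0.50 at 24 h and 72 h, and Rhox9 gave 0.07 and 0.69, and none of these was called. At 72 h 5 of 6 members were higher in both DKO libraries, Rhox5 being the exception, where 62.6% of all genes were. In deposited TPM the same count was 5 against 39.3% of all genes. On that scale Rhox5 was lower in both DKO libraries, at 35.5 and 41.6 TPM against 50.8 and 46.7 TPM in WT.

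Whether the step from 24 h to 72 h differed between DKO and WT was tested directly. No member was called (0% of the 18232 genes were), while 402 of all genes had an unadjusted p under 0.05 by limma. The difference of steps was 0.23 for Rhox5 (SE 0.391, limma adjusted p = 0.805), 0.74 for Rhox6 (0.788), -0.09 for Rhox10 (0.933) and 0.77 for the sum of Rhox6 and Rhox9 (0.788), where the median of all genes was 0.40. These p-values do not show that the steps were alike.

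The likeness of the members to each other, as Pearson's r of log2(TPM + 1) over the 14 libraries, is given as a description, since libraries share groups and genotype. Rhox5 correlated at 0.943 with Rhox6 and 0.882 with Rhox9, at 0.724 with Rhox1, 0.621 with Rhox13 and 0.123 with Rhox10. Within the WT and the DKO libraries taken apart, r was 0.945 and 0.921 for Rhox6 and 0.873 and 0.889 for Rhox9. It was 0.951 and 0.481 for Rhox1, 0.719 and -0.491 for Rhox13, and -0.230 and -0.445 for Rhox10. Among 18231 other genes, those most like Rhox5 were Slc39a4 (r = 0.982), a zinc transporter gene, Arl14epl (0.981), Cd55 (0.980), which protects cells from complement, Pdgfa (0.980), a growth factor gene, and L3mbtl2 (0.976), which encodes a Polycomb-group reader and is also among the repressors counted below. Rhox6 came at rank 38, Rhox9 at 379, Rhox1 at 4137, Rhox13 at 7797 and Rhox10 at 15670. Slc39a4 went from 30.2 TPM at WT 0 h to 19.2, 10.6 and 4.46 TPM at 24, 72 and 144 h, a smaller range than that of Rhox5. Vamp8 (r = 0.978), Ak1 (0.974), Cpne2 (0.972), Abhd5 (0.971) and Rtkn (0.970) were most like the sum of Rhox6 and Rhox9.

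Of the 36 other Rhox genes in the files, 6 passed the filter on low values and 11 reached 1 TPM in some library. The 5 that reached it without passing, Rhox2c, Rhox2d, Rhox2h, Rhox4e and Rhox11-ps2, stayed at or under 2.35 TPM. Rhox2a was the highest by its mean over all libraries, with WT group means of 7.53, 4.38, 3.19 and 1.18 TPM, with no library above 14.7 TPM. Its transcript shares 93.4% of its 50-base windows with 7 other Rhox2 copies, so the value belongs to the group of copies. For WT 144 h against 0 h the fitted differences were -1.96 for Rhox2a and -1.44 for Rhox7-ps2, and those of Rhox2e, Rhox2b, Rhox2-ps and Rhox7-ps1 lay between -1.19 and 0.13. By limma 4 of the 6 were lower there, where 50.5% of all genes were, and none was called in the 7 comparisons tested for the members.

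**Figure D4:**
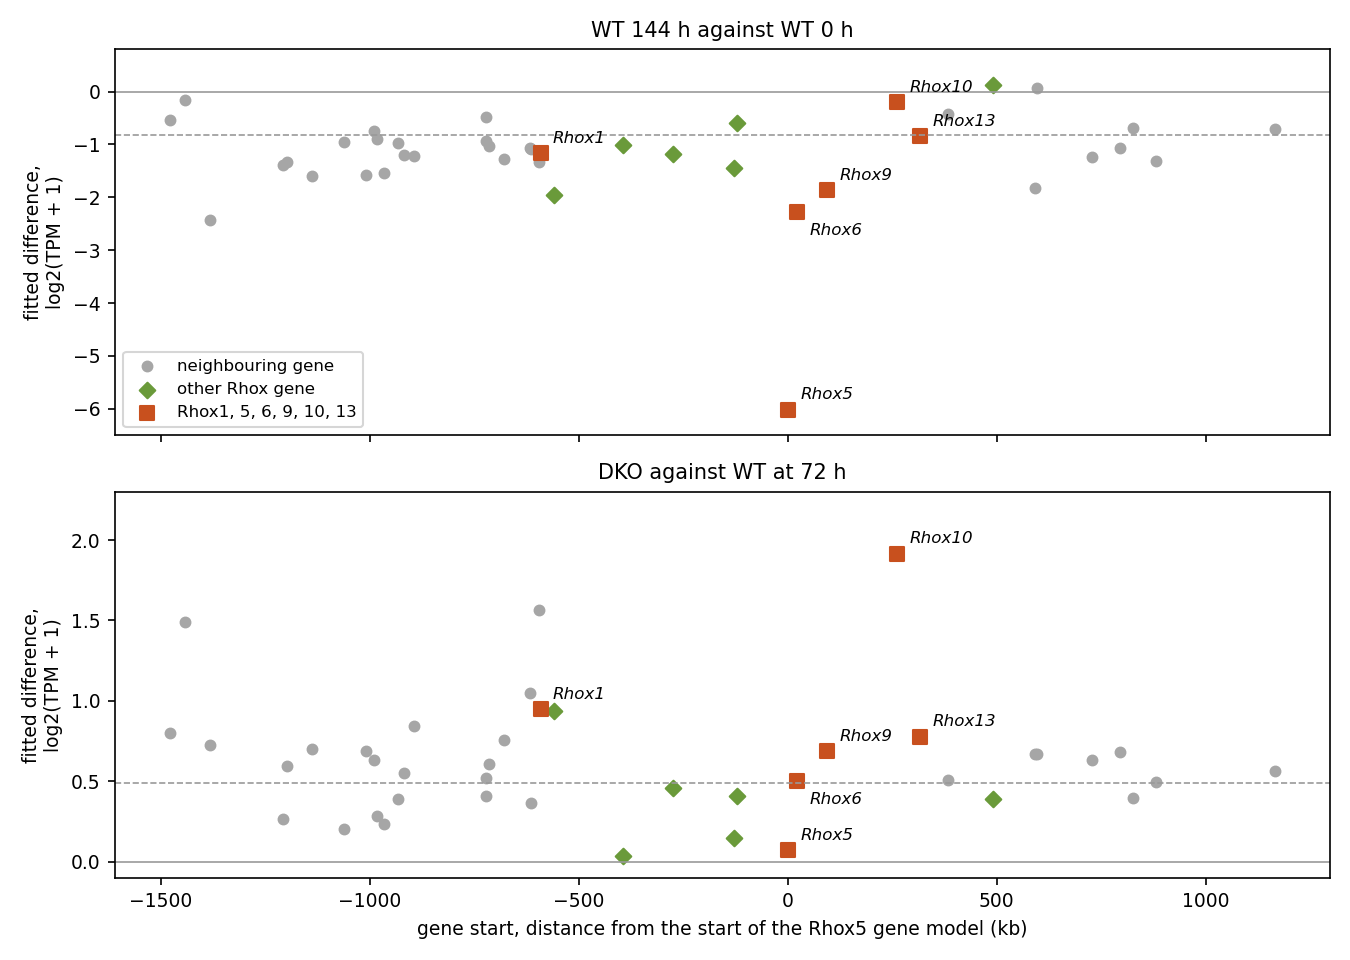
Fitted difference (log2(TPM + 1), vertical axis) of each gene that passed the filter in and within 1 Mb of the Rhox cluster, by distance of its start from the start of the Rhox5 gene model (kb), for WT 144 h against 0 h and for DKO against WT at 72 h. Squares are the 6 members, diamonds other Rhox genes, circles neighbouring genes, and the dashed line is the median of all genes. Rhox5 lies at -6.01 in the first comparison, and Rhox10 at 1.92 in the second.

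Of 63 genes within 1 Mb of the cluster, 29 passed the filter, and their median for WT 144 h against 0 h was -1.07, against -0.89 for the 674 genes of the X chromosome and -0.83 for all genes. By limma 21 of the 29 were lower and none higher, where 50.5% of all genes were lower, and in deposited TPM 3 of 28 were lower, where 12.7% of all genes were. In the tested comparisons 7 of the 29 were lower at DKO 24 h against 0 h, where 18.7% of all genes were, 1 was higher at DKO 72 h against 24 h, where 1.42% of all genes were called, and none was called at WT 72 h against 24 h, DKO 72 h against 0 h, or DKO against WT at 24 h or 72 h. The 4 neighbours with the largest differences at WT 144 h against 0 h were Gm14569 at -2.44, Gm4853 at -1.82, Gm6274 at -1.60 and Slc25a5, a mitochondrial nucleotide carrier gene, at -1.58.

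Genes that write DNA methylation or repress germline promoters were followed as the pathway around the cluster. The 6 writers and maintenance factors (Dnmt1, Dnmt3a, Dnmt3b, Dnmt3l, Uhrf1 and Hells) had a median of -1.15 for WT 144 h against 0 h, and all 6 were lower by limma, where 50.5% of all genes were. The largest differences were those of Uhrf1 at -1.41 and Dnmt3l at -1.40. Of 13 repressors 10 were lower with a median of -1.13, led by the methyl-CpG reader Mbd2 at -1.54 and the histone methyltransferase Ehmt2 at -1.53, then L3mbtl2 at -1.38 and Pcgf6 at -1.34. In deposited TPM none of the 6 writers and 2 of the 13 repressors were lower, where 12.7% of all genes were, and with each library centred on its median none of the 6 and 6 of the 13 were, where 15.2% of all genes were. On leaving out 1 library the writers lower numbered 3 to 5 (3 without WT 0 h replicate 2 or without either 144 h library) and the repressors 6 to 7, where 21.5 to 34.9% of all genes were. At DKO 24 h against 0 h 4 of the 6 and 4 of the 13 were lower, where 18.7% of all genes were, and Dnmt3a was higher at DKO 72 h against 24 h at 1.55 (limma adjusted p = 0.0247). No other call was made in either list in the comparisons tested for the members.

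Among 15 germline genes known to be silenced by DNA methylation, 2 were higher in DKO than in WT cells at 72 h, where 0.329% of all genes were called. These were Tuba3a, a testis tubulin gene, at 1.47 (SE 0.280, limma adjusted p = 0.0306) and Stra8, a meiotic entry gene, at 2.78 (SE 0.558, limma adjusted p = 0.041). Both calls were lost without each of the 4 libraries in turn, with limma adjusted p from 0.0719 to 0.817. In deposited TPM Tuba3a lost its call (limma adjusted p = 0.126), Stra8 kept it (0.0348), and Ddx4 and Taf7l gained one at 0.79 and 0.89 (0.00758 and 0.0454), where 5.21% of all genes were called. With centring Ddx4 alone was called (0.0131). Both Tuba3a and Stra8 lost their calls with centring (0.246 and 0.0556) and with no filter (0.0857 and 0.199), and Stra8 with a pseudocount of 0.1 (0.0543) and with the block across all libraries (0.0616). The list median was 0.97 at 72 h against 0.49 for all genes, and 0.56 against 0.10 at 24 h, where none was called. In the steps in time, Tuba3a was higher at WT 72 h against 24 h (1.25) and at DKO 72 h against 24 h (1.33) and lower at DKO 24 h against 0 h (-1.51). Taf7l was higher at DKO 24 h against 0 h (1.28) and Tdrd1 at DKO 72 h against 0 h (1.55). That is 1 of 15 in each direction where 19.2% of all genes were called, and 1 of 15 in the other steps, where 0.987, 1.42 and 3.66% were.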

How the data were processed

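The authors trimmed reads with cutadapt, aligned them to mm10 with STAR, quantified GENCODE VM19 genes with StringTie and deposited 1 table of TPM per library. The submitters' processing notes name cutadapt 2.4, STAR 2.7.3a and StringTie 2.0, and the study's methods name other versions of STAR and StringTie. Spike-in normalized TPM were obtained here from the deposited TPM with 1 factor per library (1 to 2.81), read as the ratio of the study's spike-in normalized supplementary values to the deposited TPM. TPM were summed per gene ID. Groups came from the GEO labels. limma 3.58.1 in R 4.3.3 was fitted with trend to log2(TPM + 1) of 18232 genes averaging 1 TPM or more (38890 were above 0), over 7 groups and without a block. The study's reporting form says that time points of a biological replicate were handled together. That replicate numbers mark this within a genotype was read here from correlations of deviations from group means. These lay between 0.222 and 0.341 in 3 DKO pairs of groups and between 0.0622 and 0.398 in 6 WT pairs. Between genotypes they ranged from -0.501 to 0.116, and 10 of 12 pairs were below 0. Equal replicate numbers therefore need not match between genotypes. The block across all libraries treats them as matched, so calls lost with it are to be read with care. The members, gene lists and tests were chosen with earlier results of these data known. Named were the members, other Rhox genes that reached 1 TPM, up to 4 genes of a list with the largest differences, and the 5 genes most correlated with Rhox5 or with the sum of Rhox6 and Rhox9. Other called list genes were named after their values were seen. The alternatives were deposited or median-centred TPM, a pseudocount of 0.1, no filter, replicate blocks, only the groups compared, and leaving out each library. Sequences came from GENCODE vM21 and RefSeq.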

Additional observations from a re-analysis of the deposited data

How the results depend on the processing

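Calls of single members were recomputed in 488 alternatives, of which 405 kept direction and side of the threshold, 29 lost the call, 27 gained it and 27 turned direction. The number of members called was 2 at WT 72 h against 24 h, and became 4 in deposited TPM, with centring, with only the groups compared and with a replicate block by genotype, and 1 with no filter, with the replicate block across all libraries and without any 1 library (1 to 1). At DKO 24 h against 0 h it was 1, and became 0 in deposited TPM, with centring and with only the groups compared, 3 with the block within each genotype, and 0 to 4 on leaving out a library (4 without DKO 24 h replicate 1, where 48.0% of all genes were called). At DKO 72 h against 0 h it was 2, and became 4 in deposited TPM and with centring, 1 with no filter and with only the groups compared, and 1 to 2 on leaving out a library. At DKO 72 h against 24 h it was 1, and became 2 in deposited TPM and with the block within each genotype, 4 with centring, 0 with only the groups compared (Rhox5, limma adjusted p = 0.199), and 1 to 2 on leaving out a library. For DKO against WT at 24 h it was 1, and became 0 with no filter, with the block across all libraries (Rhox10, limma adjusted p = 0.055) and with only the groups compared, and 0 to 1 on leaving out a library. At 72 h it was 1, and became 0 with no filter and on leaving out any library (0 to 0). Over the members, the blocks changed no other call than those given here and in the text. Members below 0 at WT 24 h against 0 h numbered 5, where 73.1% of all genes were below 0, and 3 in deposited TPM and with centring. Rhox1 lay above 0 there without replicate 1 at 0 h or 24 h (0.049 and 0.22), and Rhox6 without replicate 2 at either time (0.023 and 0.065). For DKO against WT at 0 h members below 0 numbered 0, where 19.2% of all genes were below 0, then 1 in deposited TPM, 2 with centring and 0 to 1 on leaving out a library. The 21 neighbours lower at WT 144 h became 3 in deposited TPM, 5 with centring, 12 with no filter and 5 to 18 on leaving out a library. The 28 of 45 genes called lower there over the lists of DNA methylation writers, demethylation factors, repressors, linker histones and germline genes became 3, 7, 18 and 11 to 17 under the same settings, where 50.5% of all genes became 12.7, 15.2, 18.2 and 21.5 to 34.9%.

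Fitted values that turned direction were small. In deposited TPM and with centring these were Rhox1 at DKO 72 h against 24 h (-0.15 and -0.29) and in the difference of steps (-0.011 and -0.10), Rhox13 at DKO 24 h against 0 h (0.38 and 0.29), Rhox5 for DKO against WT at 72 h (-0.33 and -0.43) and in the difference of steps (-0.078 and -0.15), and Rhox9 for DKO against WT at 24 h (-0.015 and -0.047). With centring alone these were Rhox13 at DKO 72 h against 24 h (-0.041) and Rhox6 for DKO against WT at 72 h (-0.0066). Rhox9 at 24 h gave -0.11 summed with Rhox6, a sum chosen after seeing the data. On leaving out a library, Rhox1 ranged from -0.24 to 0.40 at DKO 72 h against 24 h, from -0.47 to 0.060 at WT 72 h against 24 h and from -0.039 to 0.60 in the difference of steps. Rhox10 ranged from -0.47 to 0.28 in the difference of steps, Rhox5 from -0.39 to 0.062 for DKO against WT at 24 h and from -0.089 to 0.23 at 72 h, and Rhox9 from -0.30 to 0.45 at 24 h. The causes were not tested.

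Genes called over the whole table also moved, and member counts are to be read against them. At WT 72 h against 24 h 0.987% of all genes (180) became 12.6% in deposited TPM, 10.5% with centring, 0.103% with no filter, 0.548% with the block across all libraries, 6.60% with the block within each genotype and 5.86% with only the groups compared. At DKO 24 h against 0 h 19.2% (3500) became 28.2%, 27.7%, 6.16%, 19.5%, 40.0% and 2.91% in that order. At DKO 72 h against 0 h 3.66% (667) became 28.9%, 28.1%, 1.58%, 3.43%, 18.5% and 3.40%, and at DKO 72 h against 24 h 1.42% (258) became 6.98%, 4.61%, 0.237%, 0.965%, 13.6% and 0.647%. For DKO against WT, to which the block within each genotype was not applied, 0.0439% at 24 h (8) became 1.74%, 1.20%, 0.0257%, 0.0384% and 0.137% with only the groups compared, and 0.329% at 72 h (60) became 5.21%, 1.69%, 0.103%, 0.296% and 1.52%. On leaving out 1 library the 180 fell to between 13 (without WT 72 h replicate 1) and 118, the 60 at 72 h to between 0 (without WT 72 h replicate 2) and 10, the 667 to between 92 (without DKO 72 h replicate 2) and 382, and the 258 ranged from 41 (without DKO 72 h replicate 1) to 5799 (without DKO 24 h replicate 1). For DKO 24 h against 0 h 3500 ranged from 808 (without DKO 0 h replicate 1) to 8757 (without DKO 24 h replicate 1). With 2 libraries a group, a p that misses the threshold does not show that values did not differ. TPM carry no counts, so counting error at low levels is unknown.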
